A study of Mus musculus with 8 samples.

Results

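Homeobox genes outside the Hox clusters were examined in mouse embryonic fibroblasts (MEFs) with and without Lats2, the Hippo-pathway kinase. The members were the array probes for genes on a list of 53 homeobox symbols that lie outside the Hox clusters. Of these symbols, 51 named a gene on the array, out of 27745 gene names in all, and they were covered by 75 of the 41174 gene probes. Alx1 and Hlx named no probe, but Alx1 was present under its older symbol Cart1, which was also on the list. The cells were Lats2-/- and Lats2+/+ MEFs from 3 litters numbered 112, 116 and 121, and each genotype of a litter was taken as 1 RNA extract. The arrays of litter 121 were titled rep1 and rep2, each with a dye swap, and these titles do not say whether the RNA was prepared separately. All carried the strain name C57BL/6J, none was treated, and all were grown in DMEM with fetal bovine serum. Each extract bore its own clone name, and the age of the embryos and the body region the cells came from are not given in the sources used here. The 6 extracts were hybridised to 8 arrays of 2 colours, each holding both genotypes of a litter, so that the litter was the replicate (n = 3).

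Homeobox genes encode transcription factors that bind DNA through a homeodomain, and outside the Hox clusters they mark parts of the embryo: Dlx, Lhx6 and Lhx8 the branchial arches, Shox2 and Alx4 the limb bud, Meox and Uncx4.1 the somites, and Otx and Emx2 the forebrain. Fibroblasts grown from an embryo keep part of the homeobox code of the region they came from, and many of these genes are held silent elsewhere by Polycomb repressive complex 2 (PRC2). The study asked whether loss of LATS2 weakens PRC2. Here the comparison is the level of these genes in Lats2-/- over Lats2+/+ cells, litter by litter and by the main embryonic region of each gene.

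The arrays gave between 52.9% and 61.3% of gene probes well above background in either channel. Of the probes for Lats2, the upstream one was lower in Lats2-/- cells in each litter, by log2 ratios of -1.33, -1.05 and -0.56 in litters 112, 116 and 121, whereas the 3 downstream probes were lower in litters 112 and 116 (-0.70 to -0.18) but higher in litter 121 (0.80 to 1.17). Which part of Lats2 was deleted is not given in the sources used here, and Lats2 protein, which the study examined by western blotting, was not analysed here. All 9 fibroblast markers were measured, and their summed log2 level lay between 17.7 and 18.9 in the Lats2-/- extracts and between 17.5 and 18.6 in the wild-type extracts. Single extracts stood apart in some of these markers. In the Lats2-/- extract of litter 121 the log2 signal of the fibroblast receptor Pdgfra was 6.30, not above background, against 11.26 in its wild-type littermate and 11.14 to 13.58 in the other extracts. Thy1 was 11.00 there against 13.95 or more elsewhere, whereas Pdgfrb (13.01) and Vim (15.89) were close to the wild-type littermate (13.15 and 15.95) and Fn1 (13.96) was the highest of the 6 extracts. The wild-type extract of litter 116 had the lowest Col1a1 (13.97), Col3a1 (10.34) and Actc1 (10.34) of the 6, where the others had at least 15.09, 11.20 and 13.51, but the highest Vim (16.37). Dcn differed by most, with log2 signals of 9.62 and 8.81 in wild-type cells of litters 116 and 112 against 15.83 and 12.07 in their Lats2-/- littermates, and 13.14 against 11.20 in litter 121. Epithelial markers summed to between 9.07 and 9.89 in Lats2-/- and between 9.07 and 9.17 in wild-type extracts, with Tacstd1 above background nowhere and Cdh1 above background only in Lats2-/- cells of litter 121, and endothelial markers to between 8.43 and 8.64 and between 8.41 and 8.49, with Pecam1, Cdh5 and Emcn at background throughout. Blood cell markers summed to between 8.77 and 8.97 and between 8.82 and 8.91, with Ptprc, Itgam and Emr1 at background. The keratin Krt19 was 8.67 and 8.77 in Lats2-/- cells of litters 112 and 121 and at most 6.94 in the other extracts. Neural markers summed to between 9.99 and 10.46 in Lats2-/- and between 9.87 and 10.48 in wild-type extracts, with Sox2, Elavl3 and Gfap at background, and of the 6 muscle markers only Actc1 was above background. The part of these differences in the results was not tested.

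Of the 51 genes, 42 were expressed, meaning that a probe was well above background on most arrays of at least 1 extract, and 9 were silent. The silent genes were Barx1, Dlx3, Dlx4 and Dlx6, of the branchial arches, Pitx1, which sets hindlimb identity, Meox2 of the somites, Nkx2-3 and Tlx1 of the developing spleen, and Phox2a of autonomic neurons. Among the expressed genes, 31 had a probe in at least 2 of the 3 extracts of a genotype and were tested. The other 11 were Dlx5, En1, Gsc, Isl1, Lhx8, Lmx1b, Otx1, Otx2, Pax6, Pax7 and Vax2. By region, 8 head genes were tested, 7 were expressed in too few extracts and 4 were silent. For limb genes these numbers were 2, 1 and 1. No trunk gene fell between, with 7 tested and 3 silent, and of the genes used in several regions 14 were tested, 3 were expressed in too few extracts and 1 was silent.

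**Figure D1:**
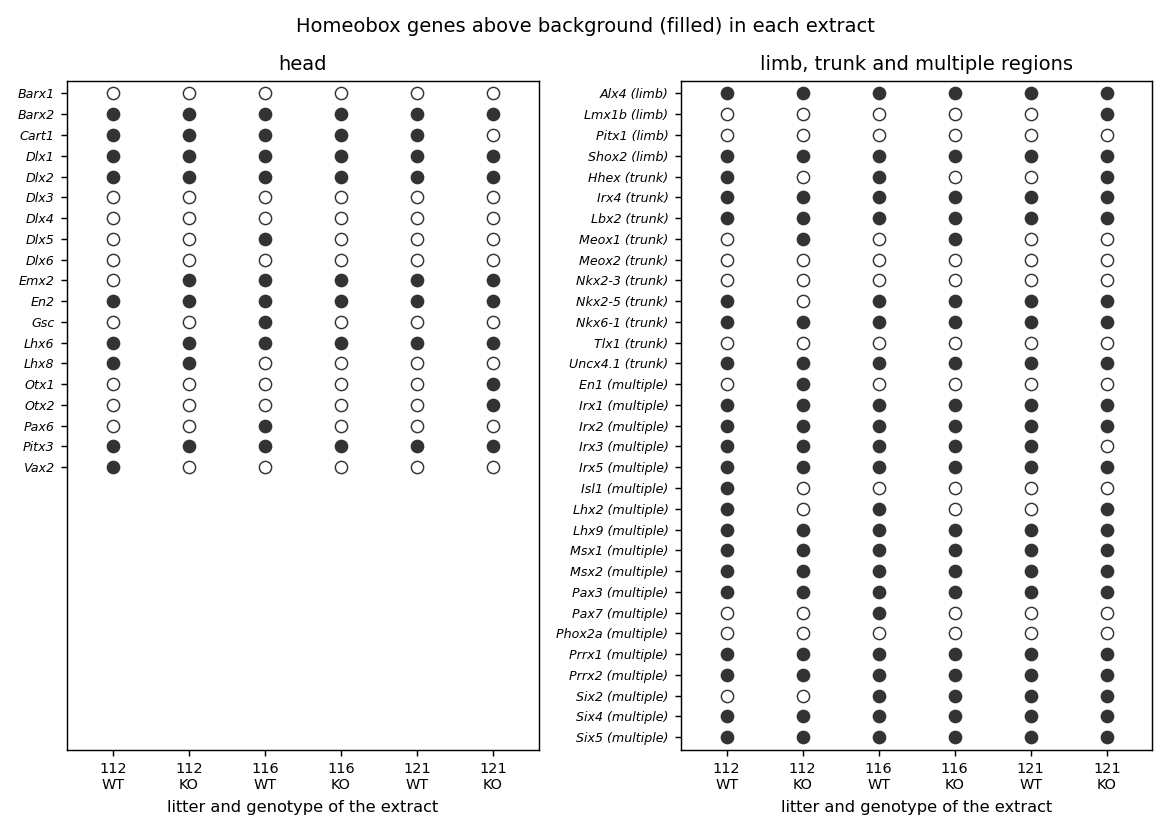
Each row is a gene and each column an extract, named by litter and genotype (WT, Lats2+/+; KO, Lats2-/-); a filled circle marks a gene whose probe was well above background on most arrays of that extract. Between 28 and 34 of the 51 genes were filled in an extract, and 9 genes have no filled circle.

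The number of these genes above background did not follow the genotype. In litters 112 and 116 it was 29 in the Lats2-/- extracts and 31 and 34 in the wild-type extracts, and in litter 121 it was 31 in Lats2-/- and 28 in wild-type cells. Of the tested genes, 23 were above background in all 6 extracts. Many of them were dim: 12 had a mean log2 signal within 1 unit of 6, close to the lowest signals called above background (5.87 to 6.15), and ratios of such dim probes understate a difference.

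With all 3 litters, no member passed the adjusted threshold of 0.05 in limma (0 of 31, against 0% of the 14791 genes tested), and the adjusted p of the members lay between 0.711 and 0.994. The methods' t-test also gave 0. At an unadjusted p under 0.05 limma gave 4 of the 31 members, beside 6.84% of all kept probes. The methods' t-test gave 2, beside 5.95% of all kept probes. The shares by direction count genes instead. Of the 4, only Irx1 was higher in Lats2-/- cells, where 4.14% of all genes were called higher. Dlx1, Lhx6 and Prrx1 were lower (9.68% of the members, against 3.45% of all genes). With the size of at least 2-fold that the study required, Irx1 was higher (background 0.838%) and Dlx1 was lower (background 0.25%) by limma's unadjusted p, while the methods' t-test with the same size gave 0 members. The study, with its own processing, reported an overlap of genes up-regulated in Lats2-/- MEFs with the homeobox protein family. That overlap was not tested here. The median mean log2 ratio of the 31 members was -0.01, beside 0.01 for all genes, with 15 members above 0 and 16 below. The calls at an unadjusted p under 0.05 depended on the litters used. Without litter 112 they were Cart1 and Prrx1 (5.06% of all kept probes), without litter 116 Dlx1, Pax3 and Prrx1 (5.53%), and without litter 121 Dlx1, Emx2, Irx1, Lhx9, Prrx1 and Prrx2 (6.43%).

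Prrx1, a paired-related factor of limb and craniofacial mesenchyme, was lower in every Lats2-/- extract, by amounts that varied little beside their mean. Its log2 signals in Lats2-/- cells were 12.82, 12.97 and 12.92 in litters 112, 116 and 121, against 13.34, 13.76 and 13.62 in Lats2+/+ cells (probe A_51_P209771, mm8 chromosome 1, 165084928 to 165084987). Every Lats2-/- extract was below every wild-type extract, which held for 1 of the 31 members and 3.01% of all genes. The mean log2 ratio was -0.67 ± 0.14 (SD, n = 3 litters), or 1.59-fold lower, with an adjusted p of 0.711 in limma. It was -0.61 to -0.74 when each litter in turn was left out, -0.65 without litter 121, and Prrx1 alone among the members had an unadjusted p under 0.05 in all of these fits. The other 5 probes of Prrx1 were lower in Lats2-/- cells in all 3 litters as well, with means of -0.67, -0.56, -0.59, -0.16 and -0.28. The smallest of these came from the dimmer probes, which had mean log2 signals of 6.70 and 6.55.

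**Figure D2:**
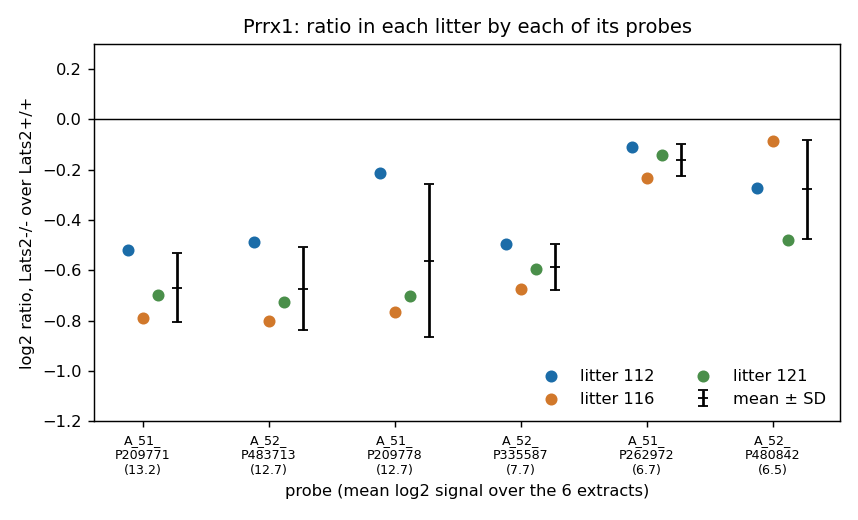
Log2 ratio of Lats2-/- over Lats2+/+ (vertical axis) of the 6 Prrx1 probes, ordered by mean log2 signal from left to right, with 1 point per litter and the mean ± SD over 3 litters in black. All points lie below 0, and the 4 brightest probes have means between -0.56 and -0.67.

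Its close relative Prrx2 behaved differently. Its log2 signals were 14.60, 13.18 and 11.64 in Lats2-/- cells and 13.86, 12.64 and 11.83 in wild-type cells of litters 112, 116 and 121. The level differed more between litters than between genotypes, and the mean log2 ratio was 0.36 ± 0.49 (SD, n = 3; limma, adjusted p = 0.763).

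Among the branchial arch genes, Dlx1 and Dlx2, neighbouring Distal-less genes on chromosome 2, were lower in Lats2-/- cells of most litters. Dlx1 (mm8 71334281 to 71334340) had log2 signals of 8.10, 6.99 and 6.34 in Lats2-/- and 8.82, 8.84 and 6.90 in Lats2+/+ cells of litters 112, 116 and 121. It was lower in each litter, but the wild-type cells of litter 121 were below both other wild-type extracts and the genotypes overlapped. The mean log2 ratio was -1.04 ± 0.71 (SD, n = 3 litters), with an adjusted p of 0.711 in limma, and it was -0.64 without litter 116 and -1.29 without litter 121. Dlx2 (71344335 to 71344394) had 10.53, 7.05 and 7.63 in Lats2-/- against 10.34, 10.95 and 8.73 in wild-type cells, a 15.0-fold difference in litter 116 and a 1.14-fold difference the other way in litter 112. Its mean was -1.60 ± 2.09 (SD, n = 3; limma, adjusted p = 0.754), with -2.50 without litter 112, -0.45 without litter 116 and -1.86 without litter 121.

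The LIM factor Lhx6, of first arch mesenchyme, was lower in each litter by a small amount. Its log2 signals were 8.83, 8.60 and 7.91 in Lats2-/- and 9.15, 9.16 and 8.24 in wild-type cells, so that the genotypes overlapped. The second, dimmer Lhx6 probe was above background in 2 of the 6 extracts only, both of litter 116, where its ratio was -0.04. Its ratios of 0.05 and -0.03 in litters 112 and 121 say little. For the first probe the mean log2 ratio was -0.40 ± 0.14 (SD, n = 3 litters), with an adjusted p of 0.711 in limma. The arrays of the same extracts differed by an SD of 0.32 for this first probe, the widest of the members tested. Its relative Lhx8, named after its values were seen, was measured only in litter 112, where its log2 signal was 10.63 in Lats2-/- and 7.57 in wild-type cells. In litters 116 and 121 it was not above background in either genotype.

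Cart1 (Alx1) and Alx4, paired-like factors of craniofacial and limb mesenchyme, were at similar levels in all wild-type extracts, and Cart1 was low in 2 of the Lats2-/- extracts and Alx4 in 1. Cart1 had log2 signals of 9.67, 10.15 and 9.93 in wild-type cells of litters 112, 116 and 121, and of 9.96, 7.65 and 6.04 in Lats2-/- cells. In litter 121 the Lats2-/- signal was not well above background, and the level was at least 13.4-fold lower. With that measured signal, the mean log2 ratio was -2.03 ± 2.13 (SD, n = 3; limma, adjusted p = 0.725), and it was -3.19 without litter 112 and -1.10 without litter 121. Alx4 had 11.29, 11.60 and 11.17 in wild-type cells and 11.22, 11.27 and 7.08 in Lats2-/- cells. Its difference was 17.0-fold in litter 121 and at most 1.26-fold in the others, and its mean of -1.50 ± 2.24 (SD, n = 3; limma, adjusted p = 0.764) became -0.21 without litter 121 and -0.77 with both of its probes averaged. The second Alx4 probe, whose mean log2 signal was 7.16, had ratios of 0.13, 0.01 and -0.26. It did not follow the first in size, nor in sign in litters 112 and 116. The extract with low Cart1 and Alx4 was the one with Pdgfra at background, and fewer cells of a type and less RNA per cell cannot be told apart in these bulk extracts.

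The Iroquois factors Irx1 and Irx2, neighbours on chromosome 13, were higher in Lats2-/- cells on average. Irx1 (mm8 72424278 to 72424337) had log2 signals of 12.25, 11.80 and 11.45 in Lats2-/- and 10.38, 10.19 and 11.27 in Lats2+/+ cells of litters 112, 116 and 121. Every Lats2-/- extract was above every wild-type extract, which held for 1 of the 31 members and 3.24% of all genes, although the litter ratios ran from 0.17 in litter 121 to 1.87 in litter 112. Averaged over litters the ratio was 1.22 ± 0.91 (SD, n = 3 litters) and 2.33-fold higher, with an adjusted p of 0.711 in limma, and 1.74 without litter 121. The second, dimmer Irx1 probe gave 0.78, 0.66 and 0.01. Irx2 had 8.60, 10.43 and 10.02 in Lats2-/- and 9.66, 6.55 and 8.91 in wild-type cells, lower in litter 112 and higher in the others. All 3 probes of Irx2 shared these signs, and the mean of the brightest was 1.31 ± 2.47 (SD, n = 3; limma, adjusted p = 0.804), with 2.50 without litter 112, 0.03 without litter 116 and 1.41 without litter 121, and 0.86 with all 3 probes averaged. Irx3 and Irx5, which lie together on chromosome 8, had mean log2 ratios of 0.03 ± 0.35 and -0.11 ± 0.55 (SD, n = 3 litters), and Irx4, known from the ventricles of the heart, 0.03 ± 0.14 (SD, n = 3 litters).

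Some genes differed one way in one litter and the other way in another. At least 2-fold differences in opposite directions in 2 litters were seen for 3 members (Irx2, Lhx9 and Msx1) and for 2.25% of all genes. Msx1, a BMP-responsive factor of craniofacial and limb mesenchyme, had log2 signals of 7.52, 7.28 and 11.91 in Lats2-/- and 8.01, 9.25 and 8.70 in wild-type cells of litters 112, 116 and 121. It was 3.92-fold lower in Lats2-/- cells of litter 116 and 9.28-fold higher in those of litter 121. Its mean log2 ratio was 0.25 ± 2.67 (SD, n = 3; limma, adjusted p = 0.974) and -1.23 without litter 121, and the second probe shared the signs. Lhx9, a LIM factor of limb and gonad, had 6.97, 6.94 and 10.15 in Lats2-/- and 8.18, 7.46 and 6.98 in wild-type cells. Only the Lats2-/- extract of litter 121 was high, and the mean of 0.48 ± 2.36 (SD, n = 3; limma, adjusted p = 0.937) became -0.86 without that litter. Msx2, the partner of Msx1, ran the other way in litter 121, with 7.50 in Lats2-/- and 9.51 in wild-type cells.

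Several genes were on in a single genotype of a litter. By its brighter probe Meox1, a somite factor, was above background only in Lats2-/- cells of litters 112 and 116. Its log2 signal was 6.63 there in litter 112 and 8.96 in litter 116, against 6.00 and 6.28 in the wild-type littermates, which put it higher by at least 1.43-fold in litter 112 and by at least 6.43-fold in litter 116. In litter 121 it was not above background in either genotype (5.98 and 6.06). The second, dimmer Meox1 probe was above background only in the Lats2-/- extract of litter 116. It gave 7.26 against 6.08 in the wild-type littermate, and its bound was 2.27-fold. In litter 112 the second probe was above background in neither genotype (6.16 and 6.05), so the difference given there rests on the brighter probe alone. No litter had Meox1 above background in both genotypes, so no mean ratio is given. Otx2, which patterns forebrain and midbrain, was above background only in Lats2-/- cells of litter 121. There its log2 signal was 8.68 against 6.18 in the wild-type littermate, at least 5.56-fold higher, and it lay between 5.96 and 6.01 in litters 112 and 116. Pax7, of neural crest and muscle precursors, was above background only in wild-type cells of litter 116, at 9.26, and was at least 8.0-fold lower in their Lats2-/- littermates at 6.26. Each of these genes thus differed by genotype in at most 2 litters.

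**Figure D3:**
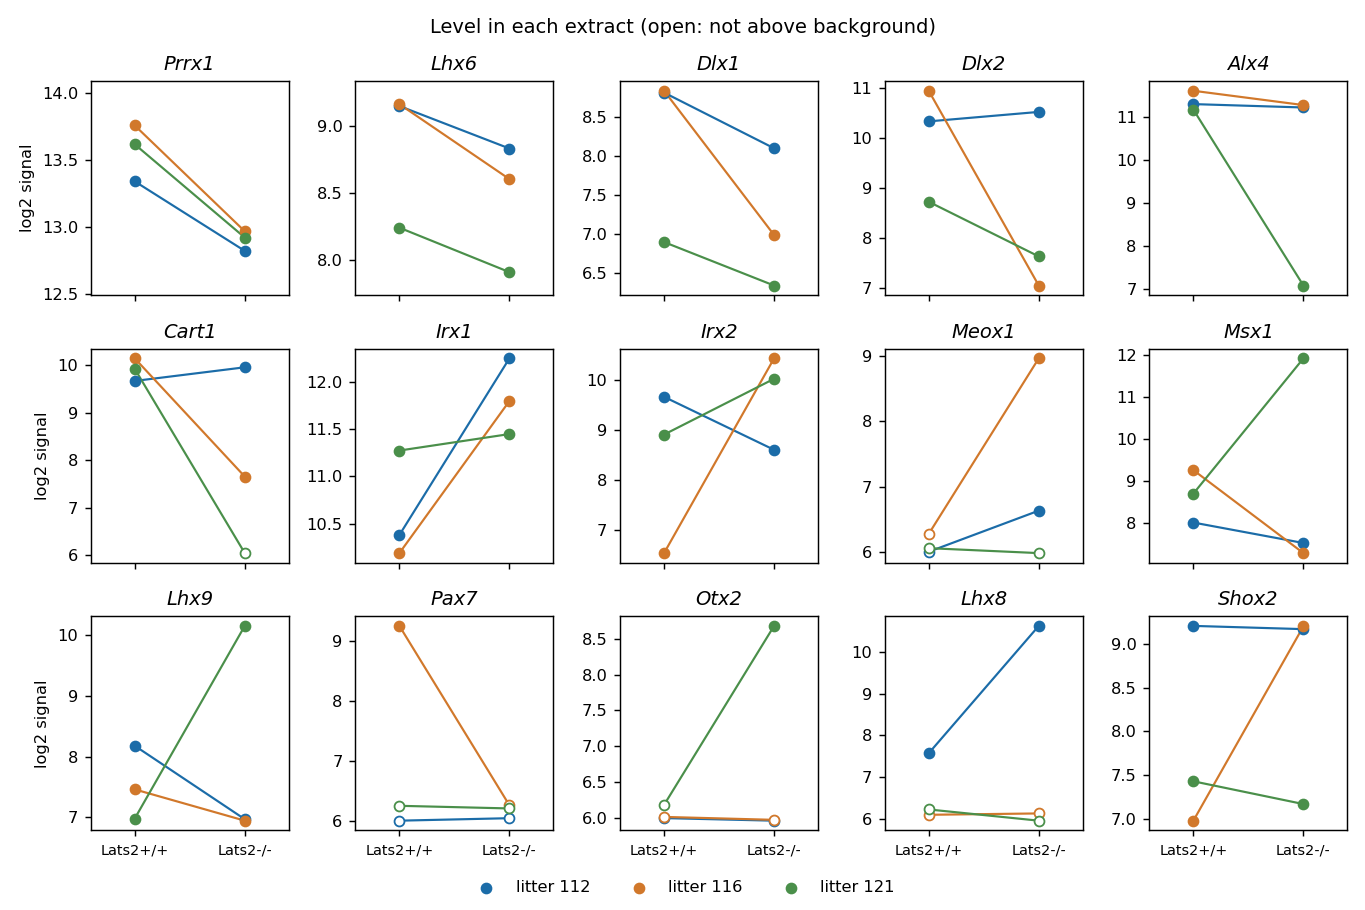
Log2 signal (vertical axis, its own scale in each panel) of 15 homeobox genes in Lats2+/+ and Lats2-/- extracts, with a line joining the genotypes of a litter and open circles for signals not above background. The lines, drawn from the probe that stands for each gene, run the same way in all litters for Prrx1, Lhx6, Dlx1, Alx4 and Irx1, and cross for Irx2, Msx1 and Lhx9.

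The other tested members had mean log2 ratios between -0.35 and 0.64. Shox2, of proximal limb mesenchyme, was at least 2-fold different only in litter 116 (9.20 in Lats2-/- and 6.98 in wild-type cells), and wild-type cells of litters 112 and 121 had 9.20 and 7.43. Six2, of nephron progenitors and head mesenchyme, differed by at least 2-fold only in litter 116, with 6.85 in Lats2-/- and 8.19 in wild-type cells. En2, of the midbrain and hindbrain border, differed likewise only in litter 121, with 7.85 in Lats2-/- against 6.52 in wild-type cells. Lhx2, a LIM factor of forebrain and limb, was above background only in wild-type cells of litters 112 and 116 (6.94 and 6.56) and only in Lats2-/- cells of litter 121 (7.03). Emx2, a forebrain and urogenital factor, was at least 1.66-fold higher in Lats2-/- cells of litter 112, where it was not above background in wild-type cells, while its log2 ratio was 0.86 in litter 116 and -0.80 in litter 121. Pax3, of neural crest and dermomyotome, had a mean of -0.21 ± 0.46, Six4 of -0.20 ± 0.65 and Six5 of 0.23 ± 0.52 (SD, n = 3 litters). Among trunk genes, Lbx2 was lower in each litter, with a mean of -0.30 ± 0.13, while the cardiac factor Nkx2-5 had 0.21 ± 0.53 (SD, n = 3 litters). Hhex, a factor of liver and blood vessel development, had log2 signals of 6.39, 6.09 and 6.48 in Lats2-/- and 7.34, 6.46 and 6.23 in wild-type cells. It was above background in only 3 extracts, and not in Lats2-/- cells of litters 112 and 116 or in wild-type cells of litter 121. Barx2, Pitx3, Nkx6-1 and Uncx4.1 had means between -0.02 and 0.02, all at signals near background. Hlx, found through its RefSeq accession under the older symbol Hlx1, had ratios of -0.23, -0.14 and 0.12.

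Grouped by region, the medians differed from litter to litter. The 8 head genes had a median mean log2 ratio of -0.21, and their medians in litters 112, 116 and 121 were 0.03, -0.29 and -0.45. The 7 trunk genes had a median of 0.02, with -0.09, 0.02 and 0.01 in the litters. For the 14 genes of several regions the median was -0.01, with -0.35, -0.09 and 0.05. The 2 limb genes, Alx4 and Shox2, were moved by different litters. The median SD between litters was 0.73 for head genes, 0.78 for genes of several regions and 0.14 for trunk genes, most of which were dim. Differences between regions were not tested.

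**Figure D4:**
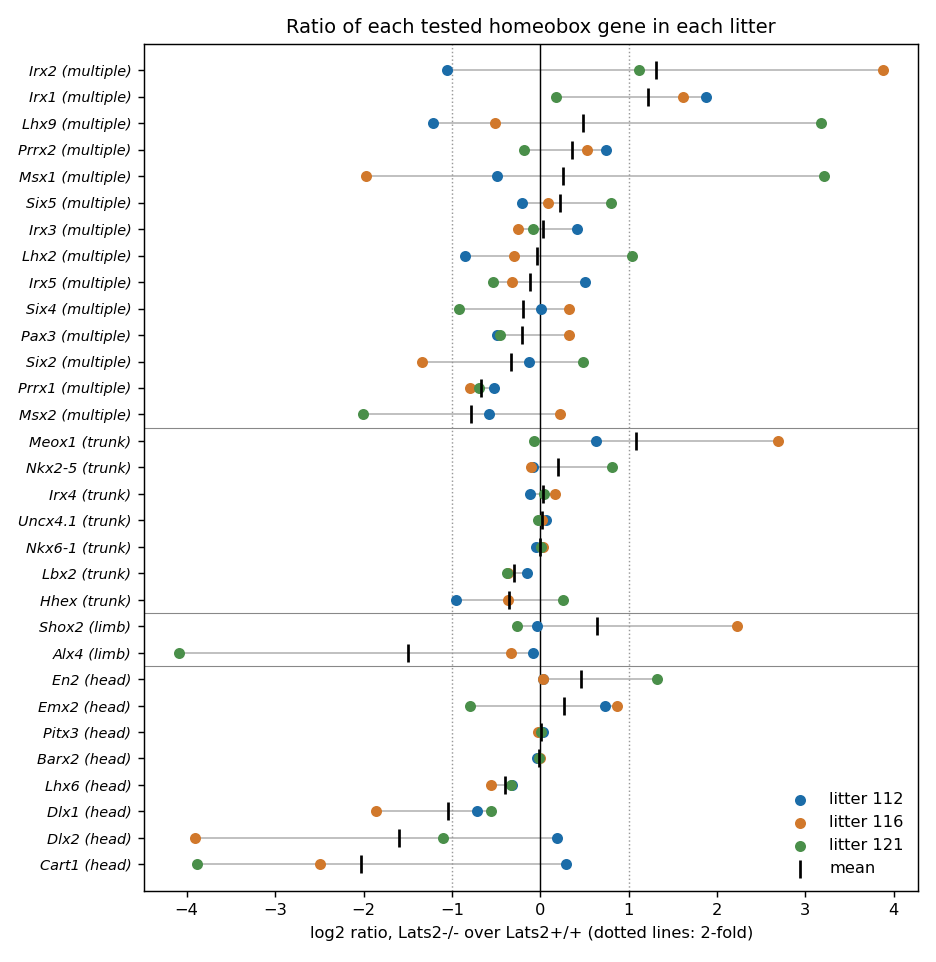
Log2 ratio of Lats2-/- over Lats2+/+ (horizontal axis; dotted lines mark 2-fold) of the 31 tested homeobox genes, grouped by main embryonic region, with 1 point per litter and a black bar at the mean. The points of 7 genes lie on 1 side of 0 in all 3 litters, and the range over litters is widest for Irx2, Msx1, Lhx9, Cart1, Dlx2 and Alx4.

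The share of homeobox genes with a 2-fold difference between genotypes was above that of all genes in each litter, and this excess was not tested. In litter 112, 3 of the 31 members differed by at least 2-fold either way (9.68%, against 4.61% of all genes). In litter 116, 9 did (29%, against 9.24%), and in litter 121 again 9 (29%, against 7.27%). These counts use the measured signals also where 1 genotype was not above background, as for Lhx2 in litter 121, whose bound there was 1.97-fold. In 1 or more litters, 14 members did (45.2%, against 15.8%). Irx2 was the only member that differed by this much in all 3 litters, and not in one direction. By the probe that stands for each gene, the log2 ratio had 1 sign in all litters for 7 members (22.6%, against 30% of all genes). These were Irx1 and En2, higher, and Alx4, Dlx1, Lbx2, Lhx6 and Prrx1, lower, but the second Alx4 probe was not lower in every litter. The median SD of the ratio between litters was 0.65 for the members and 0.27 for all genes, and it was 0.54 for the TALE genes and 0.80 for the tested regional factors without a homeobox that are described below.

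Levels also differed between litters within a genotype. The 3 wild-type extracts spanned at least 2-fold for 14 members (45.2%, against 18.9% of all genes) and the 3 Lats2-/- extracts for 15 (48.4%, against 19.8%). Irx2 spanned 8.65-fold over wild-type and 3.54-fold over Lats2-/- extracts, and Msx1 2.37-fold and 24.7-fold. Set against the error between arrays of the same extracts, the log2 ratio differed between litters for 27 members at an adjusted p under 0.05 in limma's F test (87.1%, against 86.9% of all genes), so that the members stood at the background. This test covers hybridisation error and not the spread between embryos. The 4 members without such a difference were Barx2, Nkx6-1, Pitx3 and Uncx4.1.

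**Figure D5:**
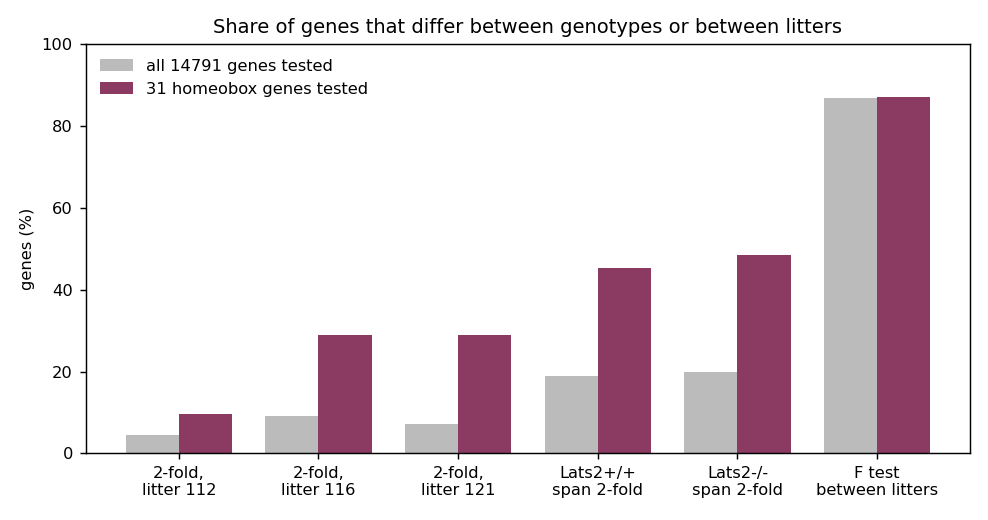
Share of genes in percent for all 14791 genes tested (grey) and the 31 homeobox genes tested (purple): at least 2-fold between genotypes in each litter, at least 2-fold between the extracts of a genotype, and an adjusted p under 0.05 in limma's F test between litters. The homeobox share is above that of all genes in the first 5 pairs of bars (9.68% to 48.4% against 4.61% to 19.8%) and level with it in the last (87.1% against 86.9%).

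The TALE homeodomain proteins, which bind DNA together with other homeodomain factors, gave no call. All 12 TALE genes listed (Meis, Pbx, Pknox, Tgif and Mkx genes) were tested, 11 of them above background in all 6 extracts, and none had an unadjusted p under 0.05. Their median mean log2 ratio was 0.12, from -0.32 for Tgif2 to 0.49 for Mkx. Of 16 regional factors without a homeobox, 10 were above background in no extract, including the limb identity genes Tbx4 and Tbx5 and the limb and heart factors Hand1 and Hand2, and 5 were tested with no unadjusted p under 0.05. Sim2 was high in the same extract as Otx2, the Lats2-/- cells of litter 121, at 8.78 against at most 6.92 elsewhere.

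The 250 bases before the annotated start in RefSeq (GRCm38.p6) were read for members whose values the results turn on. TEAD proteins are the DNA-binding partners of YAP and TAZ, which LATS kinases restrain, and their core motif was searched as GGAATG on both strands. The core TAATTA, bound by many homeodomains, is the same on both strands. RefSeq gave 44 such windows for 36 of the members. GGAATG was in 2 of them (4.55%, Dlx2 and Prrx1), against 12.6% of all 32851 promoters, and TAATTA in 5 (11.4%, of Msx2, Otx2, Prrx1 and Uncx4.1), against 4.84%. Prrx1 held both cores next to each other. The windows of Prrx1 (chr1:163313651-163313900, minus strand), Dlx1 (chr2:71529195-71529444, plus strand), Dlx2 (chr2:71546755-71547004, minus strand) and Msx1 (chr5:37824586-37824835, minus strand) follow, 5′ to 3′ on the strand of the gene, with these cores in capitals.
Prrx1: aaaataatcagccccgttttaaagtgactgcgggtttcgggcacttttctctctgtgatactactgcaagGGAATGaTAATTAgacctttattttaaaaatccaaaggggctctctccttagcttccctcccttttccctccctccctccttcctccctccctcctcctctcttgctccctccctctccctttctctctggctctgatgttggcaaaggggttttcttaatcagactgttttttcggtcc
Dlx1: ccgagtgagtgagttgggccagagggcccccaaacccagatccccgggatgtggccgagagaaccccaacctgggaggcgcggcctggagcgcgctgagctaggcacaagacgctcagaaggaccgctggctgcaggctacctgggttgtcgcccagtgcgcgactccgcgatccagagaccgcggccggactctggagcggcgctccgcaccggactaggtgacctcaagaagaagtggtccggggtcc
Dlx2: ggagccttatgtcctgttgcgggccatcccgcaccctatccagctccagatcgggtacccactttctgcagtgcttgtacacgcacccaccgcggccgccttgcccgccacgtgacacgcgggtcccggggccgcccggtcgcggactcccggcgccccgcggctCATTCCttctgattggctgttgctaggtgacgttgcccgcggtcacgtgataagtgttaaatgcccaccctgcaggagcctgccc
Msx1: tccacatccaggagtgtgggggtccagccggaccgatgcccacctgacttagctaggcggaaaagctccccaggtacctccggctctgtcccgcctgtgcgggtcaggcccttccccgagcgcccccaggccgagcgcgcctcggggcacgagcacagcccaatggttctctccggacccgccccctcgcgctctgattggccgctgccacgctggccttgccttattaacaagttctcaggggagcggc
Dlx1 and Msx1 held neither core. A match of these letters is a description of the sequence and not a binding site.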

How the data were processed

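RNA of Lats2-/- and Lats2+/+ MEFs was measured on 8 Agilent whole mouse genome arrays of 2 colours, with 2 arrays each for litters 112 and 116 on one slide and 4 for litter 121 on another, dyes swapped within each litter. Scans were extracted by the authors in Agilent software (Feature Extraction; the headers give 10.7.3.1 and the submitters' processing notes 10.5.1.1). The deposited scanner files hold spot and background intensity, not normalized, processed intensity, corrected for background and dye by the software, and log10 ratios of it. The deposited value table holds log10 ratios, which set against the scanner files gave Lats2-/- over Lats2+/+ on every array.

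Background of the mean intensities was corrected by normexp (offset 50, limma 3.58.1, R 4.3.3), normalized by loess within each array and turned to log2 ratios of Lats2-/- over Lats2+/+. Of 43379 gene spots per array, 860 outlier spots over the 8 arrays were left out, and 0 were saturated. Arrays of a litter were averaged, and the 3 litter ratios were tested against 0 with limma (lmFit and eBayes, two-sided, Benjamini-Hochberg over 22642 probes well above background in at least 2 of 3 extracts of a genotype). The signal of an extract is its log2 channel value following loess, then Aquantile. The brightest kept probe stands for a gene. Where only 1 genotype of a litter was above background, the fold is a bound against the higher of the dim probe's signal and the lowest signal above background, written as at least N-fold. Litters were compared by limma's F test over arrays with a dye term. The number of litters limits the precision, and where nothing says that extracts came from separate cultures the p-values measure only the spread between these samples.

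The members, region lists and marker lists were chosen with earlier results of these data known. Values of single extracts were given for members with an unadjusted p under 0.05, a mean of at least 2-fold, at least 2-fold differences in 2 litters, or a bound of at least 2-fold. They were also given for Prrx2, Msx2, Shox2, Six2, En2, Lhx2, Lhx8 and Hhex, which did not meet this rule. Alternatives covered the offset, the processed signals, the deposited table, median centring, the filter, each litter left out, unpaired extracts, litter or slide as a random block, the dye term, the mean of all probes and the methods' t-test. The script was tested on simulated data. Probe positions are in mm8 as the files give them. Promoter windows are RefSeq's.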

Additional observations from a re-analysis of the deposited data

How the results depend on the processing

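Across the 16 alternatives run for this count, no member passed the adjusted threshold except Prrx1 with slide as a random block, which gave 1 member (mean log2 ratio -0.68); that fit called 3.17% of all kept probes, and the litter blocks without and with a dye term called 1.51% and 0.897% with 0 members. With the litter as the replicate and each litter left out in turn, 0 members passed. The number of members at an unadjusted p under 0.05 was 2 to 6 with a litter left out, 2 with the methods' t-test (5.95% of all kept probes), 2 with no replicate block (extracts unpaired, 2.45%), 9 where litter was a random block (13.2%), 9 where slide was (17.8%), and 8 where a dye term joined the litter block (12.6%). The number at least 2-fold with such a p was 0 to 2 with a litter left out (1.15% to 1.65% of all kept probes), 0 with the methods' t-test (0.314%), 1 with no replicate block (0.495%), 6 where litter was a random block (1.83%), 5 when the dye term was added (1.76%) and 1 with the mean of all kept probes of a gene (0.872% of genes). The median log2 ratio of the members was -0.075 from the processed signals, -0.075 from the deposited table, and -0.060 to -0.0067 with a litter left out. Msx1 turned to -0.057 from the processed signals and -0.056 from the deposited table. With a litter left out Msx1 ran from -1.23 to 1.36 and Lhx9 from -0.86 to 1.33, both below 0 without litter 121. Cart1 was -3.74 from the deposited table, and Dlx1 was -1.80 from the processed signals. The count of members whose ratio differed between litters stayed within 1.5 times of 27. Hlx, added after seeing the data, changed no call. Pairing by litter comes from the clone names and the shared arrays. The cause of these changes was not tested, and signals near background limit the ratios of 12 members.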
